A study of Mus musculus with 26 samples.

Results

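The genes described here are 10 genes of fat absorption and lipoprotein assembly, Apoa1, Apoa4, Apob, Apoc3, Mttp, Fabp1, Fabp2, Cd36, Dgat1 and Scd2, taken by name from the deposited mouse expression table. All 10 had a value in each of the 26 libraries, and they stand among 25146 lines used of 26310 in the table. Enterocytes take up fatty acids with the help of surface proteins such as CD36, bind them inside the cell with fatty acid binding proteins, and rebuild triglyceride through DGAT enzymes. Microsomal triglyceride transfer protein, the product of Mttp, then loads lipid onto apolipoprotein B to form chylomicrons, which also carry the A and C apolipoproteins. Stearoyl-CoA desaturases such as SCD2 make monounsaturated fatty acids, which are building blocks for these lipids and for membranes.

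The study follows BLIMP1, the transcriptional regulator encoded by Prdm1, in 13 sorted groups with 2 libraries each, sequenced from the 3' ends of transcripts after amplification from 1 ng of RNA. Intestinal epithelium came from E16.5 embryos, sorted as GFP+ EPCAM+ cells, and from P3 and P14 pups, labelled as EPCAM+ and, per the extraction protocol, negative for BLIMP1. Age and the BLIMP1 gate therefore change together between E16.5 and the later stages and cannot be told apart. The other groups were day 2 primordial germ cell-like cells (d2 PGCLC), 5 groups of photoreceptor precursors (P0 GFP+, P4 GFP+CD73-, P4 CD73+, P6 CD73+ and P10 CD73+), and the B lineage. B cells were B220+ spleen cells of mice aged 8 to 10 weeks, and blasts (Blast, GFP- CD138-), pre-plasmablasts (prePB, GFP+ CD138-) and plasmablasts (PB, GFP+ CD138+) were sorted after such cells had been kept 3 days with IL-4 and LPS. Apart from the PGCLC, all groups came from C57BL/6 mice homozygous for EGFP fused to the N terminus of BLIMP1, so no group is free of the knock-in. The PGCLC came from transfected embryonic stem cells of a C57BL/6+129 background with Blimp1-mVenus, stella-ECFP and Rosa26-rtTA, were induced with BMP4, BMP8A, SCF, LIF and EGF, and were sorted for the mVenus reporter. No label says whether the 2 libraries of a group came from separate animals, so p-values measure the spread between these libraries, which may be technical.

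Values are RPM, reads scaled to a fixed library total. Depth ran from 1.72 to 6.04 M reads, so 1 read was worth 0.166 to 0.583 RPM and values near 1 RPM rest on a few reads. The markers bore out the labels of the intestinal libraries: the 7 epithelial markers summed to 3570 to 3634 RPM at E16.5, 5312 to 5550 RPM at P3 and 6072 to 6365 RPM at P14, and endothelial markers to at most 11.4 RPM. The RNA of cell type markers differed between stages. The 11 enterocyte markers summed to 2982 to 3111 RPM at E16.5, 1070 to 1143 RPM at P3 and 951 to 1107 RPM at P14. The 7 stem cell and crypt markers summed to 90.4 to 102 RPM at E16.5, 2208 to 2569 RPM at P3 and 2252 to 3127 RPM at P14, and the 7 goblet cell markers to 430 to 456, 2677 to 2866 and 4002 to 5260 RPM at the same stages.

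Apoa1, Apoc3 and Apoa4 lie side by side on chromosome 9 (GRCm38.p6, 46228630 to 46230469, 46233050 to 46235636 and 46240844 to 46243458). Scd2 lies on chromosome 19 (44293676 to 44306864) among its relatives Scd3, Scd4 and Scd1, and the rest are apart from each other: Apob on chromosome 12 (7977629 to 8016839), Mttp and Fabp2 on chromosome 3 (138089855 to 138143418 and 122895072 to 122899506), Fabp1 on chromosome 6 (71199879 to 71205034), Cd36 on chromosome 5 (17781690 to 17888959) and Dgat1 on chromosome 15 (76502012 to 76512021). All are protein-coding genes. RefSeq promoter sequence of that build was used for 7 of them: Apoa1, Apoa4, Apob, Mttp, Fabp1, Fabp2 and Cd36. Those of the 5 apolipoprotein and binding protein genes are shown. They were picked because these genes shared a high level in intestinal epithelium and held exact or loose matches to motifs of HNF4-type nuclear receptors. Such factors are known to act on many enterocyte genes. Being picked by level and match, the set cannot tie the motifs to the level in the gut. Capitals mark matches on either strand to the HNF4 core CAAAGNNCA or to the direct repeat, AGGTCA, any 1 base and AGGTCA again, with up to 3 mismatches. Each sequence is read 5′ to 3′ along the gene and ends before its annotated start.
Apoa1, chr9:46228380-46228629, forward strand: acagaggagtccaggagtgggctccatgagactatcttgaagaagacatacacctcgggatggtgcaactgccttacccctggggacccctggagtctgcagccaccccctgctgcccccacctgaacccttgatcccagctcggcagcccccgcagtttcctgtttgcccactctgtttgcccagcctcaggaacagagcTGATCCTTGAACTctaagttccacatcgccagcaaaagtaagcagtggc
Apoa4, chr9:46240594-46240843, forward strand: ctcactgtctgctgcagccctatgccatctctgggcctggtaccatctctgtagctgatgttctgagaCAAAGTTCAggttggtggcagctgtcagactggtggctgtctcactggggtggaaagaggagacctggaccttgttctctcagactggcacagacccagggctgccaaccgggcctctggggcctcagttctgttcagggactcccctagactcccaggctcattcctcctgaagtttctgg
Apob, chr12:7977427-7977628, forward strand: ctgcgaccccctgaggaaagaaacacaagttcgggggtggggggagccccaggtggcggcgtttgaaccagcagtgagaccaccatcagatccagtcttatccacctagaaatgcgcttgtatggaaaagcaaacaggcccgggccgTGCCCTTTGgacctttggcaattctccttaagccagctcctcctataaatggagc
Fabp1, chr6:71199629-71199878, forward strand: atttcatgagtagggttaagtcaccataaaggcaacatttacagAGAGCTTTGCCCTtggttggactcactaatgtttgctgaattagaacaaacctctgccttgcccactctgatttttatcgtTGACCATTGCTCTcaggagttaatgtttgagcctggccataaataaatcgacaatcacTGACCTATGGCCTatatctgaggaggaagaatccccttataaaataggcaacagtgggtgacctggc
Fabp2, chr3:122894822-122895071, forward strand: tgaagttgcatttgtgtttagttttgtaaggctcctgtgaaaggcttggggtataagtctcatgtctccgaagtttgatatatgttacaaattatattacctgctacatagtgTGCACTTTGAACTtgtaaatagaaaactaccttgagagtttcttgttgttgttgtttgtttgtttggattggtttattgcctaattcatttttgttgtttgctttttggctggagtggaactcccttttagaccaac

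The HNF4 core was found in Apoa4, Apob and Fabp2, 3 of the 7 promoters, and in 5.47% of 27025 promoters, all searched over 250 bases, of which 202 are printed for Apob because the rest lie inside the annotated gene. The direct repeat was found in Apoa1, Fabp1, Fabp2 and Cd36, 4 of the 7, against 21% of all promoters. Fabp1 held 3 copies, of which the one at 67 to 55 bases before the start had 1 mismatch, and in Fabp2 both motifs matched overlapping letters. The other Fabp1 copies and those of Apoa1 and Fabp2 had 3 mismatches. Cd36, low in the gut, held a copy with 2 mismatches and one with 3. The intestinal CDX motif TTTATNG was in 3 of the 7 (Apob, Fabp1 and Fabp2) and in 10.2% of all promoters, and in Apob it overlapped the TATA box TATAAA. The TATA box was in 2 (Apob and Fabp1) and 13%, the BLIMP1 core GNGAAAG in 1 (Fabp2) and 19.4%, and the GATA motif AGATAA and the sterol response element TCACNCCAC in 0 of the 7, against 10.3% and 1.04% of all promoters. The window of Mttp held neither the HNF4 core nor the direct repeat. The window of Cd36 lies inside the annotated gene, at one of its transcript starts.

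Together the 10 genes made up 2.37 and 2.56% of the RPM of the lines used at E16.5, 1.27 and 1.16% at P3, and 0.393 and 0.453% at P14. In bulk libraries, fewer cells of a type and less RNA per cell cannot be told apart. Of the 10 genes, 6 fell at P3 against E16.5 (Apoa1, Apoc3, Mttp, Fabp1, Cd36 and Scd2) and none rose. Calls need an adjusted p under 0.05 and a log2 change of 1 or more, up or down. Across all 10481 genes tested, 20.8% were called and 8.20% were called lower at P3. Of all calls 60.6% were higher at P3, and 49.6% under quantile normalization. At P14 against P3, 7 genes fell (Apoa1, Apoa4, Apob, Apoc3, Fabp1, Fabp2 and Cd36) and Scd2 rose, where 4.40% of all genes were called, 2.40% lower and 1.99% higher. Without the filter on low values 4 of these 8 calls were lost (Apob, Apoc3, Fabp1 and Cd36), and with 1 fit over all 26 libraries 3 were (Apoa1, Apob and Fabp1). At P14 against E16.5, 9 of the 10 were lower and Dgat1 was not called, where 22.3% of all genes were called and 10.4% were called lower. The 3 comparisons share libraries and are not independent of each other.

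**Figure D1:**
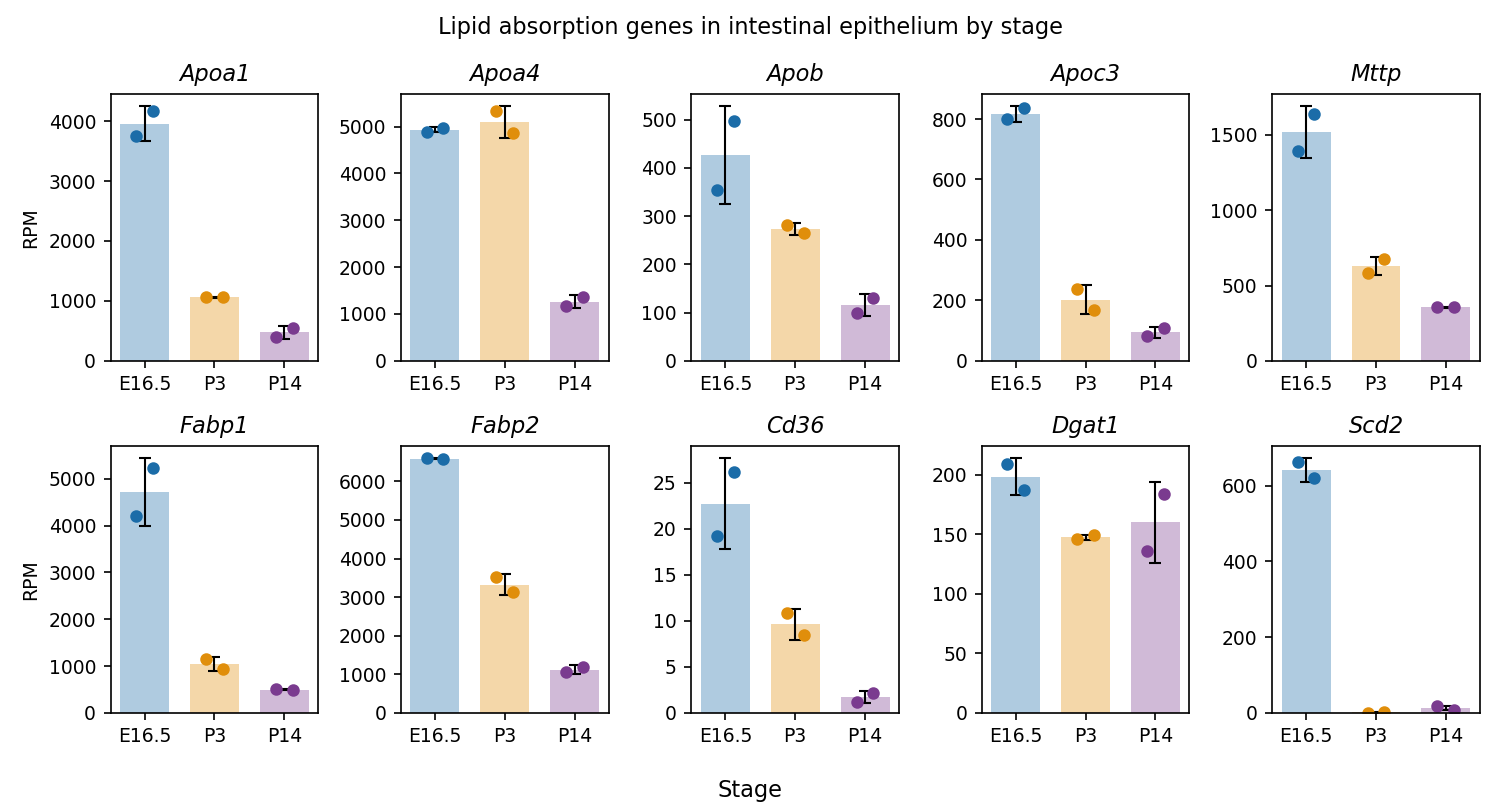
RPM of the 10 genes at the 3 intestinal stages; points are the 2 libraries of a stage, bars their mean and error lines the SD, each panel with its own axis from 0. Apoa4 stood between 4865 and 5338 RPM at both E16.5 and P3, Dgat1 stayed between 136 and 209 RPM, and Scd2 had 663 and 619 RPM at E16.5 but 0.897 and 1.35 RPM at P3.

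Apoa1 encodes the main protein of high-density lipoprotein. It had 3756 and 4165 RPM at E16.5, 1058 and 1070 RPM at P3, and 402 and 553 RPM at P14. The 3 stages did not overlap. The log2 fold change was -1.89 ± 0.15 (SE) at P3 against E16.5 (adjusted p = 3.6e-10) and -1.17 ± 0.15 at P14 against P3 (adjusted p = 7e-06), on the log2(RPM + 1) scale used for all fold changes, which understates those of low genes. Without the first P14 library the second step was -0.94 and was not called.

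Apoc3, whose product slows the clearance of triglyceride-rich particles, had 799 and 835 RPM at E16.5, 236 and 168 RPM at P3, and 80.6 and 107 RPM at P14. It ran beside Apoa1, with a ratio of Apoc3 to Apoa1 of 0.213 and 0.200 at E16.5, 0.223 and 0.157 at P3, and 0.200 and 0.193 at P14. Its log2 fold change was -2.03 ± 0.17 at P3 against E16.5 (adjusted p = 1.5e-09) and -1.09 ± 0.17 at P14 against P3 (adjusted p = 0.00012). The later step was not called without the first P14 library (-0.89) or without the first P3 library (-0.85).

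Apoa4, the third gene of the cluster, encodes an apolipoprotein that the small intestine secretes on chylomicrons. It had 4894 and 4976 RPM at E16.5, 5338 and 4865 RPM at P3, and 1167 and 1360 RPM at P14. E16.5 and P3 overlapped, with a log2 fold change of 0.05 ± 0.13 (95% interval -0.23 to 0.32, adjusted p = 0.82), and its sign turned under median-of-ratios scaling (-0.07). At P14 it fell by 2.02 ± 0.13 against P3 (adjusted p = 5.4e-10). The ratio of Apoa4 to Apoa1 was 1.30 and 1.19 at E16.5, 5.04 and 4.55 at P3, and 2.90 and 2.46 at P14, so the balance within the cluster differed between the stages without overlap. The fourth apolipoprotein gene of the region, Apoa5, averaged 2.04, 0.897 and 0.745 RPM at the 3 stages and was under the filter. Of 6 other tested neighbours none reached the fold for a call in either step, the widest values being -0.65 ± 0.25 for Pcsk7 at P3 against E16.5 and -0.73 ± 0.19 for Sidt2 at P14 against P3. Zfp259, next to Apoa5, averaged 41.1, 41.1 and 45.8 RPM over the stages, and Sik3 averaged 18.7, 15.2 and 14.2 RPM.

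Apob, the structural protein of chylomicrons, had 355 and 498 RPM at E16.5, 282 and 265 RPM at P3, and 98.6 and 131 RPM at P14. The stages did not overlap. The first step was -0.62 ± 0.17 (adjusted p = 0.0059), under the fold that a call needs, and at P14 Apob fell by 1.26 ± 0.17 against P3 (adjusted p = 2e-05). Mttp had 1395 and 1640 RPM at E16.5, 586 and 674 RPM at P3, and 355 and 354 RPM at P14. It fell by 1.27 ± 0.14 at P3 against E16.5 (adjusted p = 1e-07), and the step from there to P14 was -0.82 ± 0.14 (adjusted p = 0.00025), not called for its size.

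Fabp1, the liver-type fatty acid binding protein, had 4201 and 5224 RPM at E16.5, 1153 and 931 RPM at P3, and 508 and 489 RPM at P14. Fabp2, the intestinal type, had 6595 and 6588 RPM at E16.5, 3513 and 3140 RPM at P3, and 1048 and 1202 RPM at P14. Each stage stood apart from the next in both genes, but the sizes of the steps differed. Fabp1 changed by -2.18 ± 0.14 at P3 against E16.5 (adjusted p = 2e-11) and by -1.05 ± 0.14 at P14 against P3 (adjusted p = 2.1e-05). Fabp2 changed by -0.99 ± 0.13 (adjusted p = 2.9e-06), just short of a call, and by -1.56 ± 0.13 (adjusted p = 1.9e-08). With median-of-ratios scaling the first step of Fabp2 was -1.11 and was called, and the second step of Fabp1 was -0.97 and was not. Without the first P3 library the same holds, with -1.07 for Fabp2 and -0.90 for Fabp1. The ratio of Fabp2 to Fabp1 was 1.57 and 1.26 at E16.5, 3.05 and 3.37 at P3, and 2.06 and 2.46 at P14.

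Cd36, the fatty acid translocase, was low in the gut, at 19.2 and 26.2 RPM at E16.5, 10.8 and 8.41 RPM at P3, and 1.22 and 2.15 RPM at P14, where it rested on 4 and 13 reads. It fell by 1.16 ± 0.38 at P3 against E16.5 (adjusted p = 0.019) and by 1.99 ± 0.38 at P14 against P3 (adjusted p = 0.0012). The first call was lost without either P3 library (adjusted p = 0.051 and 0.13) and without the second E16.5 library (adjusted p = 0.19). Endothelial markers, which accompany Cd36 in many tissues, summed to 3.46 to 7.15 RPM at E16.5, 1.35 to 11.4 RPM at P3 and 4.64 to 8.54 RPM at P14, and of the 5 adipocyte markers Adipoq, Plin1, Retn and Cfd were at 0 in all 6 intestinal libraries. The fifth, the lipid droplet gene Cidec, averaged 29, 33.3 and 10.4 RPM over the stages and fell at P14 against P3 (-1.57 ± 0.29, adjusted p = 7e-04), as Cd36 did. The 7 myeloid markers, of macrophages that also use CD36, summed to 49.1 to 53.5 RPM at E16.5, 21.3 to 22.9 RPM at P3 and 16.3 to 34.3 RPM at P14. Of 3 tested genes of that list, 1 was called lower and 1 higher at P3 against E16.5. The part of all these markers in the Cd36 values was not tested.

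Dgat1, one of the enzymes of the last step of triglyceride synthesis, had 209 and 187 RPM at E16.5, 146 and 149 RPM at P3, and 136 and 184 RPM at P14. Neither step was called, with -0.42 ± 0.16 at P3 against E16.5 (adjusted p = 0.046) and 0.10 ± 0.16 at P14 against P3 (95% interval -0.24 to 0.44, adjusted p = 0.80). The related Dgat2, which makes triglyceride by another protein fold, fell by 1.25 ± 0.15 at P3 against E16.5 (adjusted p = 3.9e-07) and by 1.56 ± 0.15 at P14 against P3 (adjusted p = 1.1e-07), with means of 520, 218 and 73.2 RPM over the 3 stages. Whether the 2 genes' changes differ was not tested.

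Scd2 had the widest range. It had 663 and 619 RPM at E16.5, 0.897 and 1.35 RPM at P3 (2 and 4 reads), and 17.7 and 8.94 RPM at P14. It fell by 8.25 ± 0.28 at P3 against E16.5 (adjusted p = 1.4e-16) and rose by 2.69 ± 0.28 at P14 against P3 (adjusted p = 5.4e-07). Because P3 held so few reads, these sizes moved with the pseudocount, to -6.72 and 1.54 with 5 RPM and to -8.64 and 3.03 with 0.5 RPM. Both calls held at each pseudocount. The related desaturase gene Scd1, also on chromosome 19, averaged 21.2, 2.07 and 0.553 RPM, and it fell by 2.85 ± 0.45 at P3 against E16.5 (adjusted p = 2.3e-05).

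**Figure D2:**
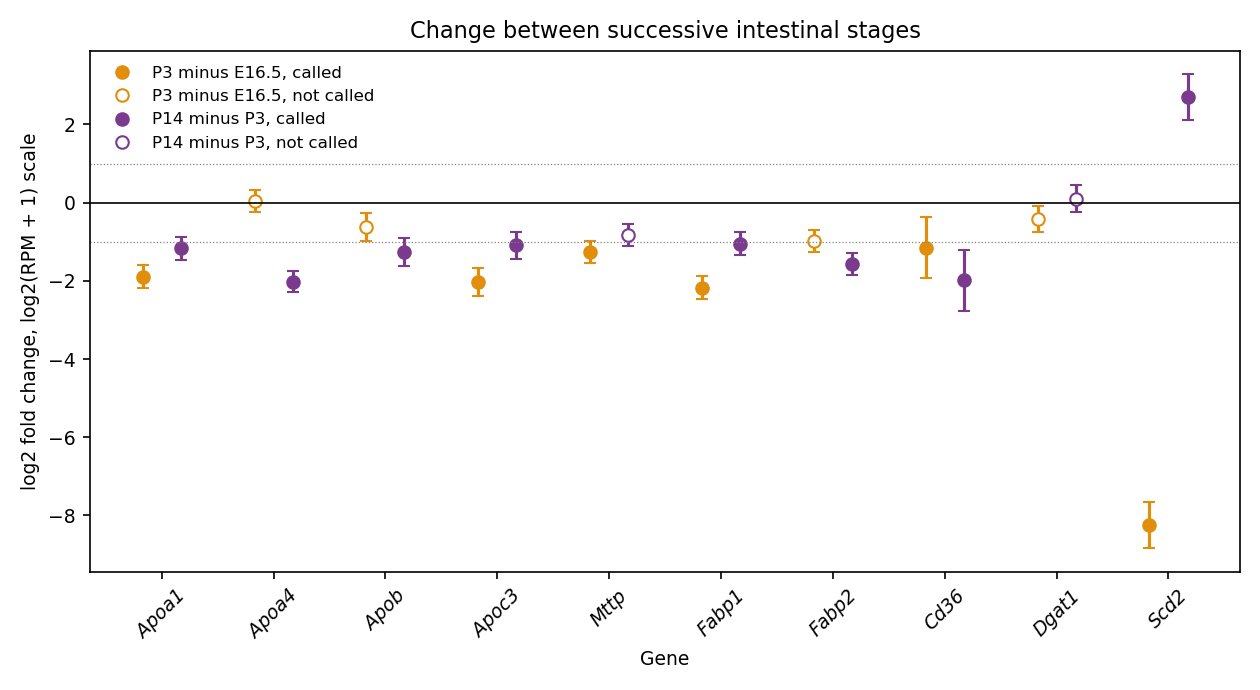
Log2 fold change of each gene at P3 against E16.5 and at P14 against P3, with 95% intervals; filled points were called, and dotted lines mark a log2 change of 1. Apoa4 was at 0.05 in the first step and at -2.02 in the second, whereas Scd2 was at -8.25 and then at 2.69.

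The markers of other cells moved beside these changes. Of the 11 enterocyte markers, 8 were called lower and 2 higher at P3 against E16.5, with a median log2 fold change of -1.22, beside a median of -1.21 over the 10 genes and 0.11 over all genes tested. All 7 crypt markers, 6 of 7 goblet markers and all 8 enteroendocrine markers rose. At P14 against P3, 1 of 11 enterocyte markers was called lower, with a median of -0.02, while the 10 genes had a median of -1.13. In that step 6 of 8 enteroendocrine markers were called lower (median -1.6), and their sum was 1590 to 3039 RPM at P14 against 5353 to 7803 RPM at P3. Hepatocyte and yolk sac markers, cells that also make apolipoproteins, summed to 653 to 767 RPM at E16.5, 207 to 240 RPM at P3 and 115 to 165 RPM at P14. Of 6 tested genes of that list 4 fell at P3 against E16.5 (Afp, Trf, Fga and Fgb; median -2.73). Afp averaged 271, 19.6 and 37.4 RPM over the 3 stages, Ttr 266, 151 and 77.4 RPM, and Trf 128, 17.9 and 10.3 RPM. Alb averaged 0, 0.168 and 0.61 RPM, and Ahsg was at 0 in all 6 libraries. The part of cell makeup in the changes of the 10 genes was not tested.

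Genes of other steps of fat handling, from lists drawn up with earlier results of these data known, did not all move the same way at P3 against E16.5. Across all genes tested in that step, 8.20% were called lower and 12.6% higher, the shares to set beside the counts of each list. Of 12 tested genes of chylomicron assembly and other apolipoproteins, 3 fell (median -0.69), led by Apoc1 with -2.29 ± 0.31, an apolipoprotein of triglyceride-rich particles, and Tm6sf2 with -1.30 ± 0.15, a gene of lipoprotein lipidation. Apoc2, the activator of lipoprotein lipase, averaged 626 RPM at P3 and 642 RPM at E16.5 and was not called (-0.05 ± 0.18), as was Apoa4. Of 12 genes of fatty acid uptake and binding, 6 fell and 1 rose (median -0.97). Acsl5, which activates long-chain fatty acids, fell by 2.08 ± 0.13, and Slc27a2, a fatty acid transport protein, rose by 3.12 ± 0.26. Of 16 genes of triglyceride synthesis and droplets, 6 fell, led by Gpam with -2.17 ± 0.24, and 3 rose, among them the lipase gene Pnpla2 with 1.19 ± 0.19. The call of Mgll, with 2.69 and 11.8 RPM at P3 against 1.92 and 0.926 RPM at E16.5 (1.53 ± 0.51), was lost without the second P3 library (0.64, adjusted p = 0.43) or the second E16.5 library (1.23, adjusted p = 0.13), and the change was 2.43 without the first P3 library.

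All 14 sterol synthesis genes fell at P3 against E16.5, with a median of -2.41 and none called at P14 against P3. Fdps, which makes farnesyl diphosphate, had 60.7 RPM at P3 against 676 RPM at E16.5 (-3.47 ± 0.18, adjusted p = 2.1e-13), and the sterol sensor gene Insig1 had 38.2 against 419 RPM (-3.41 ± 0.18, adjusted p = 4.1e-13). Of 12 genes of fatty acid synthesis, 4 fell, among them Scd1 and Fasn (-1.98 ± 0.19), and Me1 rose by 1.17 ± 0.23. Of 7 sterol transport genes 3 fell and none rose (median -0.89), where 8.20% of all genes were called lower. Of 18 genes of fatty acid oxidation and ketogenesis 5 were called higher and 0 lower, where 12.6% of all genes were called higher, and the median of the list, 0.2, was close to the 0.11 of all genes. Pdk4, which holds back glucose oxidation, rose by 2.97 ± 0.45, Angptl4 by 2.66 ± 0.25, and Cpt1a, which admits fatty acids to mitochondria, by 1.44 ± 0.14. Among 16 lipid regulators 4 fell and 1 rose: the bile acid receptor gene Nr1h4 fell by 1.36 ± 0.17 and Mlxipl, a carbohydrate-sensing factor, rose by 2.26 ± 0.18. Hnf4a averaged 593, 745 and 750 RPM over the stages and was not called at P3 against E16.5 (0.33 ± 0.14, adjusted p = 0.059).

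**Figure D3:**
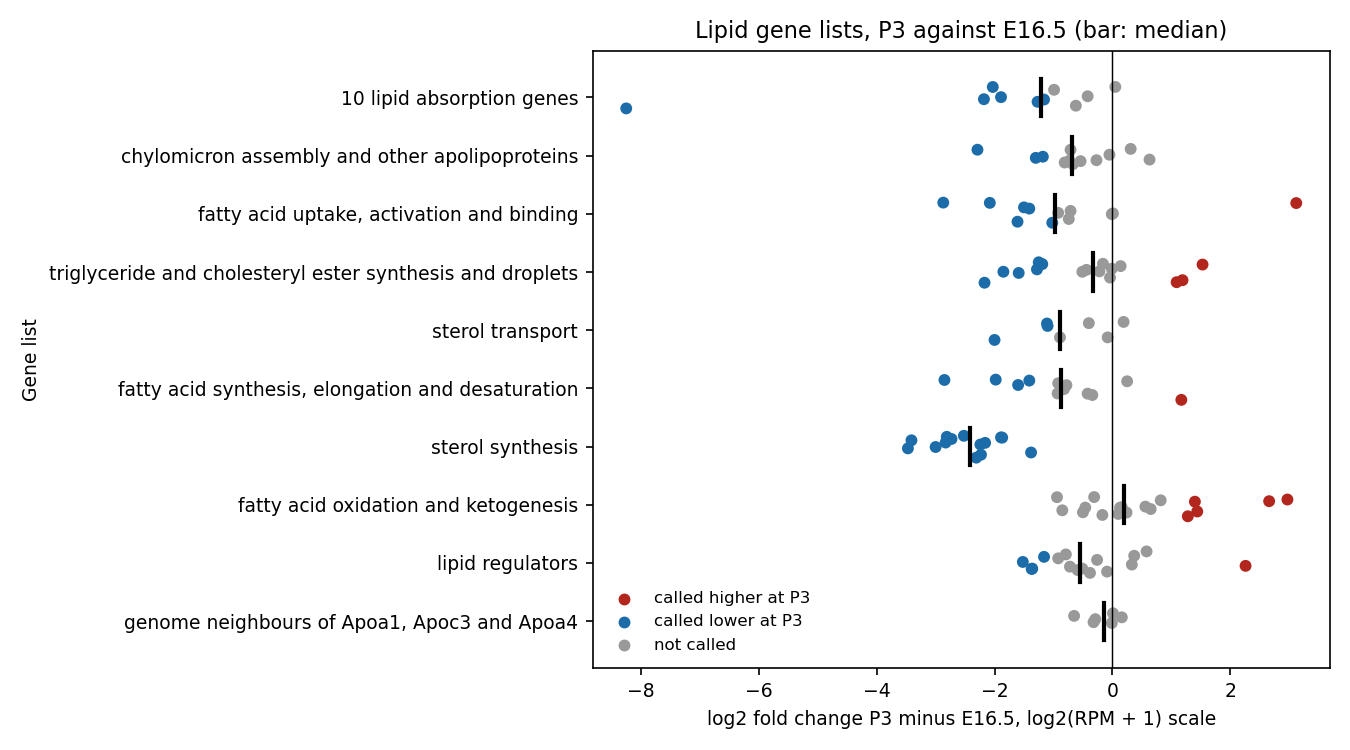
Log2 fold change at P3 against E16.5 of each tested gene, by list; red points were called higher at P3, blue points lower, grey points not called, and the black bar is the median of the list. All 14 sterol synthesis genes lay below 0, and 5 of 18 fatty acid oxidation genes were called above it.

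At P14 against P3, where 4.40% of all genes were called, 2 of 12 chylomicron genes fell, 2 of 12 uptake genes fell and 1 rose, 3 of 16 triglyceride genes fell, 2 of 7 sterol transport genes rose, and 4 of 18 fatty acid oxidation genes fell and 0 rose (median -0.7), among them Acadl with -1.46 ± 0.15 and Hadhb with -1.12 ± 0.14, enzymes of the beta-oxidation cycle. Apoc2 had 127 RPM at P14 against 626 RPM at P3 (-2.31 ± 0.18), and Rbp2, a retinol carrier of enterocytes, fell by 2.21 ± 0.18. Abcg5 and Abcg8, the paired transporters that return sterols to the gut lumen, rose by 2.49 ± 0.30 and 1.56 ± 0.35, the second of which was not called without the second P14 library (1.34, adjusted p = 0.089) or the second P3 library (1.41, adjusted p = 0.087). Fabp6, the bile acid binding protein of the ileum, had 45.2 and 6.29 RPM at P14 against 0 and 1.01 RPM at P3 (3.69 ± 0.59). The P14 libraries were far apart, and the change was 2.36 without the first of them and 5.03 without the second. All of these calls had adjusted p-values of at most 0.0044.

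Apoa1, Apoa4, Apob, Apoc3, Fabp1 and Fabp2 were at or above 5 RPM in at most 1 of the 20 libraries outside the gut, so they passed the filter on low values through the intestinal libraries alone and had to differ; their levels against the other groups are given as a description. Their stage means ran from 93.6 RPM for Apoc3 at P14 to 6592 RPM for Fabp2 at E16.5, and the highest value in any of the 20 other libraries was 9.35 RPM. Mttp and Dgat1 passed the filter outside the gut as well, and both were called higher in intestinal epithelium than in the mean of the 10 other groups, where 43.0% of 14131 genes were called and 18.3% were called higher. The log2 fold change was 6.99 ± 0.21 for Mttp (adjusted p = 6.3e-19) and 3.12 ± 0.12 for Dgat1 (adjusted p = 6.1e-17), and in both genes the lowest intestinal library was above the highest of the others. Over those 20 libraries Apoc3 was listed at 0 in 14 and had at most 3 reads, and Apob was at 0 in 10 and had at most 7 reads. Apoa1 reached 9.35 RPM in 1 P10 library, and Apoa4 reached 4.09 RPM. The second B cell library had 4.58 RPM of Apoa1, 4.09 of Apoa4, 5.06 of Fabp1 and 6.26 of Fabp2, against 2.02, 1.01, 0.404 and 1.62 RPM in the first. Photoreceptor genes had low values in the intestinal libraries, with Crx at 0.448 to 5.43 RPM, Otx2 at 0.915 to 10.8 RPM, Nrl at 1.22 to 8.85 RPM and Rcvrn at 0 to 0.926 RPM. Mttp in the retina had 12 and 10.5 RPM at P0 and 12.1 and 8.44 RPM in P4 GFP+CD73- cells. In the same P0 libraries Fabp1 had 0.679 and 0.932 RPM, and Fabp2 had 1.13 and 0.699 RPM. The source of these low values, and of the Mttp reads in the retina, was not tested. Dgat1 was found in every group, at means of 33.9 to 45.5 RPM in the retina, 15.3 RPM in d2 PGCLC and 4.04 to 20.0 RPM in the B lineage.

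**Figure D4:**
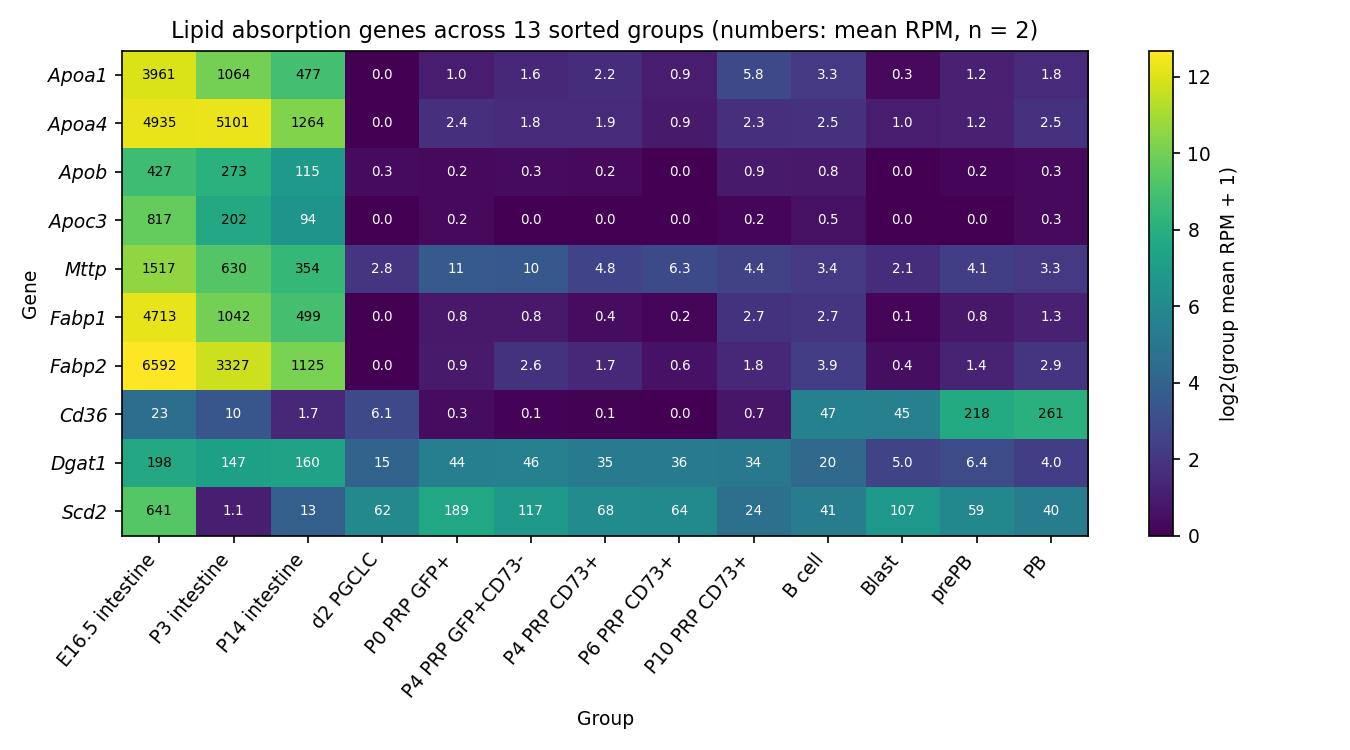
Group mean of each gene in the 13 groups, colour on a log2(RPM + 1) scale and printed as RPM (n = 2 libraries each), with the intestinal groups at the left. Apoa1, Apoa4, Apob, Apoc3, Mttp, Fabp1 and Fabp2 were above 90 RPM in the 3 intestinal groups and at most 11.2 RPM elsewhere, whereas Cd36 peaked at 261 RPM in PB.

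Cd36 was the gene of the 10 that peaked outside the gut. It had 43.5 and 50.3 RPM in B cells, 54.3 and 35.8 RPM in Blast, 244 and 193 RPM in prePB, and 276 and 247 RPM in PB. Both later groups stood above both earlier ones. It rose in prePB against Blast by 2.27 ± 0.20 (adjusted p = 3.6e-06), where it was the 1 called of 3 tested genes and 10.3% of all genes were called. Blast against B cells gave -0.08 ± 0.20 (adjusted p = 0.76), with the sign turned under median-of-ratios scaling (0.06), and PB against prePB gave 0.27 ± 0.20 (adjusted p = 0.35). The prePB and Blast gates, both CD138-, differ in BLIMP1 reporter signal after culture under the same conditions. The 7 myeloid markers, of macrophages that also use CD36, summed to 274 to 404 RPM in B cells, 19.3 to 21.7 RPM in Blast, 35.9 to 39.9 RPM in prePB and 12.7 to 18.4 RPM in PB. Endothelial markers summed to 140 to 152 RPM in B cells, 24.6 to 35 RPM in Blast, 14.4 to 17.7 RPM in prePB and 8.90 to 9.92 RPM in PB. Most of that sum was Pecam1, with means of 142, 28.5, 15.1 and 9.15 RPM in these groups. The 5 adipocyte markers summed to 0 to 0.482 RPM in B cells, 0.289 to 1.52 RPM in Blast, 0.305 to 1.20 RPM in prePB and 0 RPM in PB. The part of these markers in the Cd36 step was not tested. In retina Cd36 was at most 1.04 RPM, and intestine against the mean of the other groups gave 0.01 ± 0.14 (95% interval -0.29 to 0.31, adjusted p = 0.94). The mean of the other groups joins the low retinal and the high B-lineage levels, so this value does not show equal levels. In RPM the means were 11.3 in intestine and 57.9 over the other groups.

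Dgat1 and Scd2 went in opposite directions between B cells and Blast. Dgat1 had 5.33 and 4.62 RPM in Blast against 21.4 and 18.5 RPM in B cells, a fall by 1.81 ± 0.37 (adjusted p = 0.001). Scd2 had 143 and 71.9 RPM in Blast against 38.9 and 43.2 RPM in B cells, a rise by 1.29 ± 0.41 (adjusted p = 0.016). With 3 genes tested, 2 were called there, and 34.1% of all genes were called. The Scd2 call was lost without the first Blast library (0.80, adjusted p = 0.19) or the first B cell library (1.21, adjusted p = 0.068). None was called in PB against prePB by limma, where 13.0% of all genes were called and 0 of the 3 had an unadjusted p under 0.05. Of all calls there 9.68% were higher in PB, and 48.3% under median-of-ratios scaling. The median over all genes tested was -0.39. The lines used summed to 688943 and 650799 RPM in PB, against 864611 and 827448 RPM in prePB. Beside these, all 14 sterol synthesis genes rose in Blast against B cells (median 2.89), led by Idi1 with 354 against 11.9 RPM (4.82 ± 0.21), with Dhcr7 not called without the first B cell library (0.88, adjusted p = 0.25), while Apoe, an apolipoprotein of macrophages and many tissues, had 3.33 against 191 RPM (-5.49 ± 0.33).

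In the retina 3 genes were tested, Mttp, Dgat1 and Scd2. Scd2 had 173 and 205 RPM at P0, 100 and 133 RPM in P4 GFP+CD73- cells, 47.1 and 89.7 RPM in P4 CD73+ cells, 55.6 and 72.0 RPM at P6, and 27.5 and 21.5 RPM at P10. The level at P10 lay below all the others, and of the steps the last was called, with -1.34 ± 0.25 at P10 against P6 (adjusted p = 0.0014, 1 of 3 genes, 11.0% of all genes called). The steps before it were -0.70 ± 0.25 at P4 against P0 (adjusted p = 0.059), -0.82 ± 0.25 for CD73+ against CD73- cells at P4 (adjusted p = 0.047, under the fold needed) and -0.04 ± 0.25 at P6 against P4. In those 3 comparisons 0 of the 3 genes were called by limma, where 11.0, 5.86 and 2.70% of all genes were, and Scd2 had the only unadjusted p-values under 0.05, in 2 of them. Dgat1 stayed between 31.1 and 52.5 RPM in the 10 retinal libraries.

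Scd2 was called lower in the intestine than in the mean of the other groups, where 24.7% of all genes were called lower (-1.30 ± 0.18, adjusted p = 1e-06), yet E16.5 held the highest level of all 13 groups and P3 and P14 the lowest, so that mean joins opposite levels. With a pseudocount of 5 RPM it was -0.75 and was not called. Scd1 had its highest levels in the B lineage, with means of 408 RPM in B cells, 277 RPM in Blast, 106 RPM in prePB and 85.4 RPM in PB. Scd2 averaged 41 RPM, 107 RPM, 58.8 RPM and 40.1 RPM in the same groups. Outside the B lineage Scd1 was at most 30.9 RPM in any library.

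**Figure D5:**
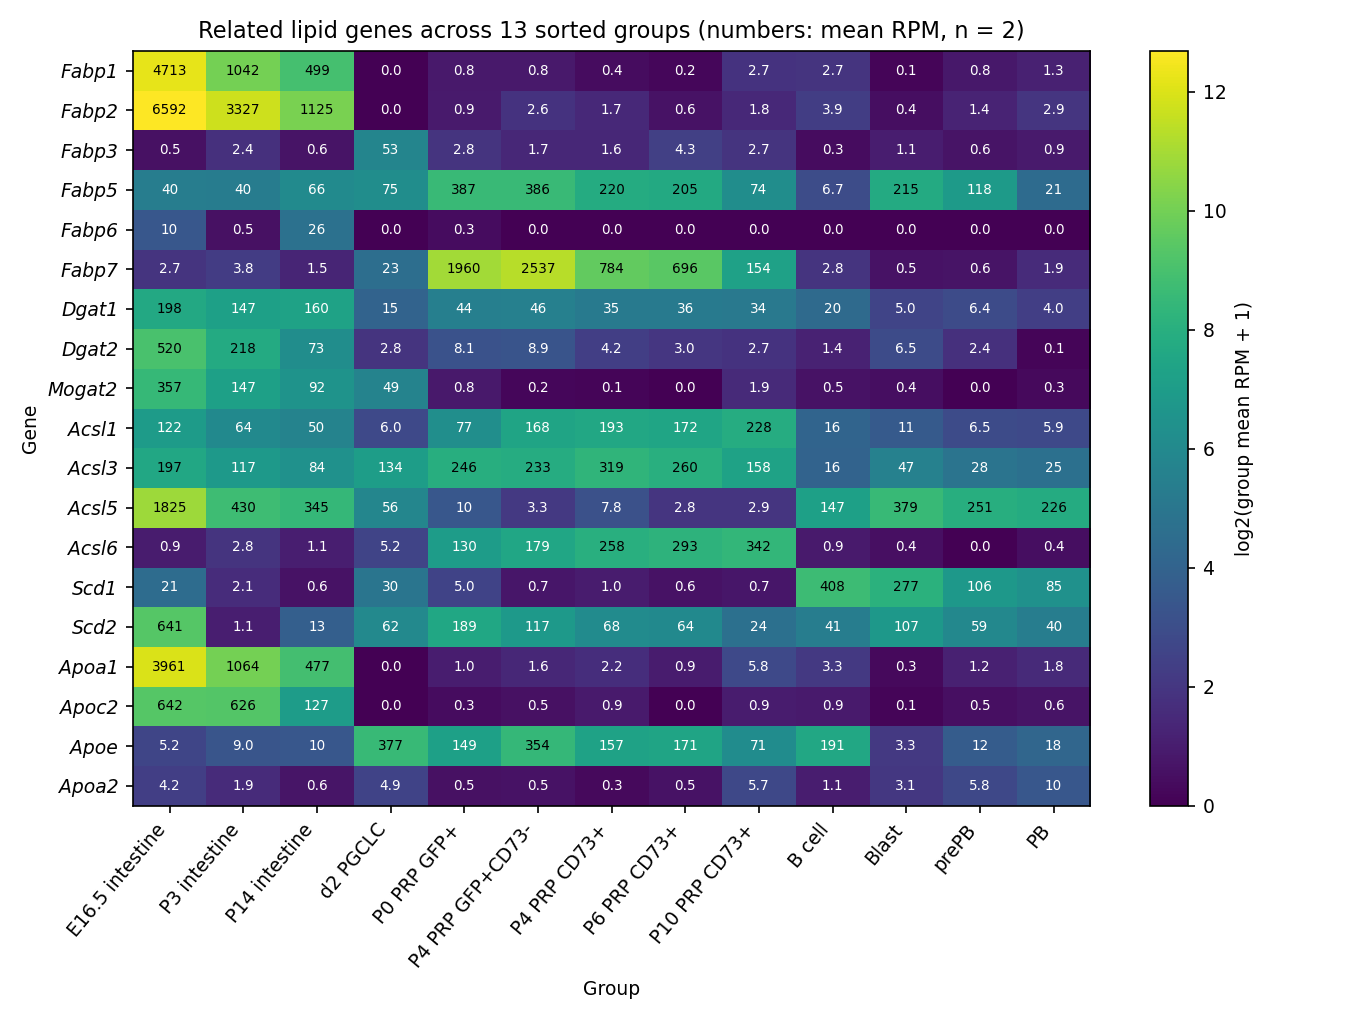
Group mean of genes related to the 10 by family, colour on a log2(RPM + 1) scale and printed as RPM (n = 2 libraries each), intestinal groups at the left. Fabp1 and Fabp2 were highest in the gut, Fabp7 in the retina with up to 2537 RPM, Fabp3 in d2 PGCLC with 53.4 RPM, and Scd1 in B cells with 408 RPM.

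Some relatives of the 10 genes were high mainly in 1 lineage, and others were found in several. Among fatty acid binding proteins, Fabp7, known from neural progenitors and glia, averaged 2537 RPM in P4 GFP+CD73- cells and 154 RPM at P10, against stage means of at most 3.76 RPM in the intestine. Fabp5 averaged 387 RPM at P0 in the retina and 215 RPM in Blast, against 6.71 RPM in B cells, a rise of 4.83 ± 0.26 in Blast (adjusted p = 5.8e-09). Acsl6 was a retinal gene of its family, at 130 to 342 RPM there, while Acsl5 was high in the gut, at 1825 RPM at E16.5, and in the B lineage, at 147 to 379 RPM. Fabp5 also averaged 40.3, 39.7 and 66.3 RPM over the 3 intestinal stages. Acsl3 averaged 197 RPM at E16.5 in the gut, 134 RPM in d2 PGCLC and 319 RPM in P4 CD73+ cells. Apoe averaged 5.24 RPM at E16.5, 9.03 RPM at P3 and 9.96 RPM at P14, against 377 RPM in d2 PGCLC.

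By Pearson correlation of log2(RPM + 1) over the 13 group means, among 11275 genes with a group mean of at least 20 RPM, the genes most like Apob were Slc6a19 (r = 0.999), Prap1 (0.998), Ros1 (0.998), Alpi (0.997) and Creb3l3 (0.997). Slc6a19 encodes a neutral amino acid transporter of the brush border, Alpi intestinal alkaline phosphatase and Creb3l3 a transcription factor of liver and gut. The points share their low values, since each of these genes was near 0 in the 10 groups outside the gut, and 6 of the other 9 genes had r of 0.98 or more with Apob, the exceptions being Dgat1 (0.788), Cd36 (0.026) and Scd2 (-0.250). The gene most like Scd2 was the line named Gm19494 (Entrez 100502995) with r = 0.992, and the next, Stx8, had 0.805. Gm19494 had 2806 and 3077 RPM at E16.5, 4.04 and 11.1 RPM at P3, and 68.0 and 32.5 RPM at P14, and it fell by 8.56 ± 0.29 at P3 against E16.5 and rose by 2.62 ± 0.29 at P14 against P3. Over the 26 libraries the ratio of Gm19494 to Scd2 had a median of 4.23 and a range of 3.21 to 8.25. The annotation used here does not place this line, and no source used here says how the authors treated reads that fit more than 1 gene, so the values of Scd2 are uncertain. Scd2 came to fractions of a read in some libraries, such as 192.33 and 179.25 reads in B cells and 561.92 and 248.83 reads in Blast. How these fractions arose was not tested.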

How the data were processed

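Libraries (26, in 13 sorted groups of 2) were grouped by their titles. Per the submitters' processing notes, the tools included Cufflinks 2.2.0, Bowtie 1.0.1, TopHat 1.4.1 and cutadapt 1.11 with mm10, and the step that each made is not stated. The values deposited by the authors are an expression signal, named RPM in the table's own name. In each library 82.9 to 91.3% of values under 20 reads were whole multiples of 1 read within 0.02, too few for a count test. Depth came from the most common low value of each library, taken as 1 read. Of 26310 lines, 1164 (92 spike-in lines and 1072 gene lines without a number in all 26 columns) were left out. Entrez IDs matched RefSeq GRCm38.p6, of which mm10 is the UCSC name, for 24062 of 25146 lines.

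Levels were tested as log2(RPM + 1) with limma 3.58.1 (trend) in R 4.3.3, two-sided, on genes that reached 5 RPM in 2 or more libraries of a fit, adjusted by Benjamini-Hochberg over all genes tested. The fits held the 6 intestinal, 8 B-lineage, 10 retinal or all 26 libraries, without a replicate block, and were tested on simulated data. The simulated spread was a fixed setting, not taken from these data. Of the planted log2 changes, which were of 2 and 3 in size, 92.9 to 100% were recovered. Smaller changes were not simulated, so this does not measure recovery of changes near the threshold of 1. False calls were 3.59% of calls at P3 against E16.5, 4.64% in prePB against Blast, 7.39% at P6 against P4 CD73+ and 0% for intestine against the rest. Calls needed an adjusted p under 0.05 and a log2 change of 1 or more in size. The 10 genes and the lists were chosen with earlier results of these data known. All 10 genes are named, with up to 3 called genes per list and direction by size, some members of the lists chosen after their values were seen (Apoc2, Hnf4a, Dgat2, Scd1, the Fabp and Acsl families), and the 5 genes most like Apob and Scd2. Zpr1 and Adgre1 were read under the older names Zfp259 and Emr1. Alternatives were pseudocounts of 0.5 and 5 RPM, no filter, median-of-ratios and quantile scaling, a replicate block, 1 fit over all 26 libraries and leaving out each library. Python 3.11.15, NumPy 2.4.6, pandas 2.3.3 and matplotlib 3.10.9 made the tables and figures.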

Additional observations from a re-analysis of the deposited data

How the results depend on the processing

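Depth limits the low values: 1 read was worth up to 0.583 RPM, and each group has 2 libraries. Median-of-ratios scaling moved the median of all genes at P3 against E16.5 to 0 from 0.11. The numbers of called genes among the 10 stayed within 1.5 times in the 3 intestinal stage comparisons except at P14 against P3, with 8 called against 4 without a filter, where calls over all genes were 143 in place of 461, and 5 in 1 fit over all 26 libraries. In that fit Blast against B cells had 4 called in place of 2, and P10 against P6 had 2 in place of 1. Leaving out each library gave 5 to 6 called at P3 against E16.5, 6 to 8 at P14 against P3, 9 at P14 against E16.5, 9 for intestine against the rest (6 of them fixed by the filter), 1 to 2 in Blast against B cells, 1 to 2 in prePB against Blast (2 without the first prePB library, with Scd2 at -1.44), 0 to 1 between the P4 gates (1 without the second CD73+ library, with Scd2 at -1.28), and the same number in the other comparisons. Calls over all genes moved by more than 1.5 times in other comparisons as well. In prePB against Blast there were 655 with a pseudocount of 5 RPM and 664 without a filter, in place of 1012. In PB against prePB there were 655 with that pseudocount, 803 with median-of-ratios and 688 with quantile scaling, in place of 1281. At P6 against P4 CD73+ there were 111 without a filter in place of 316, and at P10 against P6 there were 817 with 5 RPM in place of 1282. A group left with 1 library was assumed to vary like the others of its fit.

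Signs turned for values that were not called. Apoa4 at P3 against E16.5 was -0.07 with median-of-ratios scaling and ran from -0.02 to 0.11 when a library was left out. Cd36 in intestine against the rest was -0.46 with a pseudocount of 5 RPM, -0.01 with median-of-ratios and -0.05 with quantile scaling, and -0.07 to 0.10 with a library left out. Cd36 in Blast against B cells was 0.06 and 0.11 with the 2 scalings, and -0.38 to 0.21 with a library left out. Dgat1 at P10 against P6 was 0.05 and 0.02 with them, and -0.30 to 0.12. With a library left out, Dgat1 ran from -0.11 to 0.32 at P14 against P3, from -0.20 to 0.68 in prePB against Blast, from -0.20 to 0.34 at P4 against P0 and from -0.15 to 0.26 at P6 against P4. Mttp ran from -0.37 to 0.11 at P4 against P0, from -0.41 to 0.85 at P6 against P4 and from -1.24 to 0.28 at P10 against P6, and Scd2 from -1.24 to 0.08 in PB against prePB and from -0.50 to 0.42 at P6 against P4. Causes were not tested. Replicate numbers 1 and 2 recur in each group, but no label says that they share an animal, and their deviations correlated at -0.05 to 0.28. A replicate block left the 6, 8 and 9 calls of the intestinal comparisons, and changed no call of the 10 genes.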
